A study of Mus musculus with 14 samples.

Results

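Snurf-Snrpn and the genes of the core Sm proteins were followed on 14 Affymetrix 430A arrays of mouse brain RNA. The members were all probe sets annotated to Snrpn, Snurf, Snrpb, Snrpd1, Snrpd2, Snrpd3, Snrpe, Snrpf or Snrpg, which came to 14 of 22690 probe sets. Of these, 4 were annotated to both Snurf and Snrpn, 1 to Snrpn alone and 9 to the other core Sm genes, and 8 of the 9 genes had a probe set, Snrpf being the exception. All mice were T9H/+ heterozygotes, carriers of a reciprocal translocation between chromosomes 7 and 15. In the MatDp7 mice both copies of proximal chromosome 7 came from the mother and both copies of proximal chromosome 15 from the father, and in the PatDp7 mice the reverse. Each duplication was measured in neonatal cortex (2 arrays) and neonatal cerebellum (2 arrays). It was also measured in brain of embryos at 15.5 days post coitum (dpc, 2 arrays) and at 13.5 dpc (1 array). The labels call the paired arrays biological replicates and name neither animals nor pools, so p-values measure the spread between these arrays. No array of a mouse without a duplication was analysed here, and both duplication groups also differ in the parental origin of proximal chromosome 15.

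The Sm proteins form a ring around the small nuclear RNAs of the spliceosome, and the SMN complex loads them onto the RNA. SmB, the product of Snrpb, holds one position of that ring in most tissues, and its close paralog SmN, the product of Snrpn, takes the same position in neurons. Snrpn lies in the imprinted Prader-Willi and Angelman region and is transcribed from the paternal chromosome, together with Snurf, whose short reading frame sits upstream of SmN on the same messenger RNA. The question addressed here is what the other Sm genes, Snrpb first, did where both copies of that region were maternal. In whole tissue, fewer cells of a type and less RNA per cell cannot be told apart.

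In the RefSeq annotation (GRCm38.p6) Snurf lies at chr7:59982495-60005199 and Snrpn at chr7:59982495-60450177, both on the minus strand. Snrpn transcripts are annotated to start at the Snurf start and at sites farther upstream. Snrpd2 is also on chromosome 7, at chr7:19149445-19152734. Snrpb lies at chr2:130171636-130179382, Snrpd3 and Snrpf on chromosome 10, Snrpe on chromosome 1 and Snrpg on chromosome 6. Promoter sequence from RefSeq, 250 bases before to 50 after the annotated start, was found for Snurf, Snrpn, Snrpd2, Snrpd3, Snrpe, Snrpf and Snrpg. The Snrpd2 window (chr7:19149588-19149887) lies inside the gene span given above. It therefore belongs to a start downstream of the gene's first base, and the window at that first base is not shown. The promoters of 3 genes are shown with CpG dinucleotides in capitals, because the first is the start within the imprinted region, the second the other chromosome 7 member and the third that of the member with the largest difference between neonatal and embryonic tissue.
Snurf, chr7:60005150-60005449, minus strand: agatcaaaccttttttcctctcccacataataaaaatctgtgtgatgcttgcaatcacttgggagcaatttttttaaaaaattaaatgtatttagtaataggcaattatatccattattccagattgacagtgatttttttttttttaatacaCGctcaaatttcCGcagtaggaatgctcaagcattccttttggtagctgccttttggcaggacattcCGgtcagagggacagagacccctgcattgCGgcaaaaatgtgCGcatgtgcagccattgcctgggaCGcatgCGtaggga
Snrpd2, chr7:19149588-19149887, plus strand: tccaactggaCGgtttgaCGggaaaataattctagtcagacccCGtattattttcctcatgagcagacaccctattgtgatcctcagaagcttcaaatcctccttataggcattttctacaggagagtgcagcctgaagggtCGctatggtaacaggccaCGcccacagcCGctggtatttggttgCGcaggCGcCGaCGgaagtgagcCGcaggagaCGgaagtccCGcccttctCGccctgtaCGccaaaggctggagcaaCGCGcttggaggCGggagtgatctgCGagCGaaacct
Snrpg, chr6:86371290-86371589, plus strand: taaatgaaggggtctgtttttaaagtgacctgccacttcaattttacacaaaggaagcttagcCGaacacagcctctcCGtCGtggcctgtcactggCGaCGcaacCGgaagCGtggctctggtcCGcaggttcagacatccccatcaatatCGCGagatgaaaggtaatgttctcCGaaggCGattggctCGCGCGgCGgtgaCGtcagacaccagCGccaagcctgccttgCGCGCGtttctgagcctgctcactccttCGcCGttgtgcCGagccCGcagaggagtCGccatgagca
The Snurf window, shared with a Snrpn start, held 7 CpG and had a GC content of 40.3%. The annotated Snrpn starts farther upstream held 2, 3 and 4 CpG. The other core Sm windows held more: 18 at Snrpd3, 20 at Snrpd2 and at Snrpf, 24 at Snrpe and 26 at Snrpg. The median over the 32851 mouse promoters of the same length was 7, and 94.6% of them held at least 1 CpG. These are letters in a window; methylation was not measured here.

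All 14 arrays had been scaled to the same level: the mean intensity after trimming the upper and lower 2% of probe sets lay between 500.13 and 500.15. The 4 neonatal arrays numbered 1 stood apart, with a highest intensity of 43127 to 61172 against 17662 to 25858 on the other 10. On the 12 replicated arrays the number also went with sex-linked transcripts: Xist, the transcript of the inactive X chromosome, read 198 to 437 on arrays numbered 1 and 2882 to 5323 on those numbered 2, and Uty, a Y-linked gene, read 174 to 319 and 29.1 to 58.8. The 13.5 dpc arrays, whose labels carry no number, both had high Xist (5760 and 4374), so that 15.5 minus 13.5 dpc also compares mixed with Xist-high arrays, and the part of this was not tested. Neonatal comparisons are therefore also given within each number. Summed cerebral cortex markers read 1330 to 2032 in cortex and 132 to 234 in cerebellum. Summed cerebellum markers overlapped, at 5029 to 7724 in cerebellum and 2567 to 8662 in cortex. The brightest of the 5, Zic1, overlapped too (2429 to 5643 and 2230 to 8108). The others did not: En2 read 231 to 489 in cerebellum and 18.0 to 89.1 in cortex, Barhl1 471 to 1103 and 169 to 231. Pcp2 read 152 to 346 and 13.0 to 105, and Irx3 517 to 972 and 90.3 to 189. Of the 4 tested, 3 were called lower in cortex (0.368% of tested probe sets were called either way).

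Snurf-Snrpn signals were lower in every MatDp7 sample than in any PatDp7 sample. Of the 4 probe sets annotated to both genes, all 4 were higher in PatDp7 in the mean of the 3 replicated tissues, against 0.0958% of the 13576 probe sets tested (limma, Benjamini-Hochberg adjusted p under 0.05). In MatDp7, 2 of the 4 kept a signal well within the intensity range and 2 read near its bottom. The latter, 1421063_s_at and 1435716_x_at, passed the filter on mean intensity through their PatDp7 values. The 4 correlated at r from 0.95 to 0.999 over the 14 arrays, so 4 of 4 is not a count of independent results. They differed on how much transcript MatDp7 held. Without probe sequences, the signal kept there cannot be assigned to Snurf-Snrpn.

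Probe set 1415895_at, the brightest of the set and taken to stand for the locus, read 4635 and 1489 in MatDp7 cortex and 14510 and 16686 in PatDp7 cortex. In cerebellum it read 2337 and 2203 against 16691 and 14217, and in 15.5 dpc brain 1756 and 1671 against 11768 and 12600. The lowest PatDp7 array of these tissues was thus above the highest MatDp7 array, which was the cortex array numbered 1. The difference, PatDp7 minus MatDp7, on the scale of log2 of intensity plus 51.8, was 2.69 ± 0.241 (SE; limma adjusted p = 0.0013), and the mean MatDp7 intensity was 16.3% of the PatDp7 mean. A two-sided exact permutation test within tissues gave p = 0.00926, the smallest the 216 arrangements allow.

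Probe set 1415896_x_at read 406 and 210 in MatDp7 cortex, 358 and 282 in MatDp7 cerebellum and 251 and 218 in MatDp7 15.5 dpc brain. The PatDp7 arrays of the same tissues read 10442 and 13354, 12871 and 11351, and 10892 and 11680. MatDp7 was at 2.44% of PatDp7, a difference of 5.15 ± 0.164 (SE; limma adjusted p = 2.82e-07).

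The remaining probe sets annotated to both genes were near the bottom of the intensity range in MatDp7. Probe set 1421063_s_at read 29 and 4 in MatDp7 cortex, 4 and 7 in cerebellum and 3 and 2 in 15.5 dpc brain, against 3678 and 6954, 5326 and 7902, and 6023 and 4235 in PatDp7. Probe set 1435716_x_at read 8 and 5, 9 and 7, and 8 and 4 in MatDp7, against 5243 and 8513, 6350 and 8917, and 6520 and 6094 in PatDp7. All these MatDp7 values were under 51.8, the 20th percentile of all intensities, which was the constant added before taking logs, so the fitted differences of 6.54 ± 0.198 and 6.88 ± 0.149 (SE; limma adjusted p = 2.59e-07 and 2.61e-08) depend on that constant. With 16 and 200 in its place the 1421063_s_at difference was 7.90 and 4.78.

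The probe set annotated to Snrpn alone, 1432096_at, was dim and did not pass the filter on mean intensity, so it was tested among all 22626 probe sets. It read 22 and 10 in MatDp7 cortex, 17 and 9 in MatDp7 cerebellum and 8 and 13 in MatDp7 15.5 dpc brain. In PatDp7 it read 246 and 252, 213 and 406, and 229 and 148. The groups did not overlap, and the difference of 2.17 ± 0.165 passed the test (SE; limma adjusted p = 0.000497; 0.0751% of all probe sets were called higher). Its MatDp7 values were also under the added constant, and the difference was 3.15 and 1.06 with constants of 16 and 200, still called.

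At 13.5 dpc, with 1 array of each duplication and so no test, the Snurf-Snrpn contrast had the same direction. Probe set 1415895_at read 3029 in MatDp7 and 6248 in PatDp7, so that MatDp7 stood at 48.5% of PatDp7. The values were 301 and 5843 for 1415896_x_at, 4 and 2055 for 1421063_s_at, 8 and 2542 for 1435716_x_at, and 29 and 75 for 1432096_at. The 4 probe sets annotated to both genes were at least 1 log2 unit higher in PatDp7, against 0.486% of the probe sets tested, and 1432096_at was 0.66 higher. Over all 7 arrays of each duplication, each of the 5 Snurf-Snrpn probe sets had every PatDp7 value above every MatDp7 value. This pattern was held by 0.103% of the probe sets tested, to which 1432096_at does not belong.

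**Figure D1:**
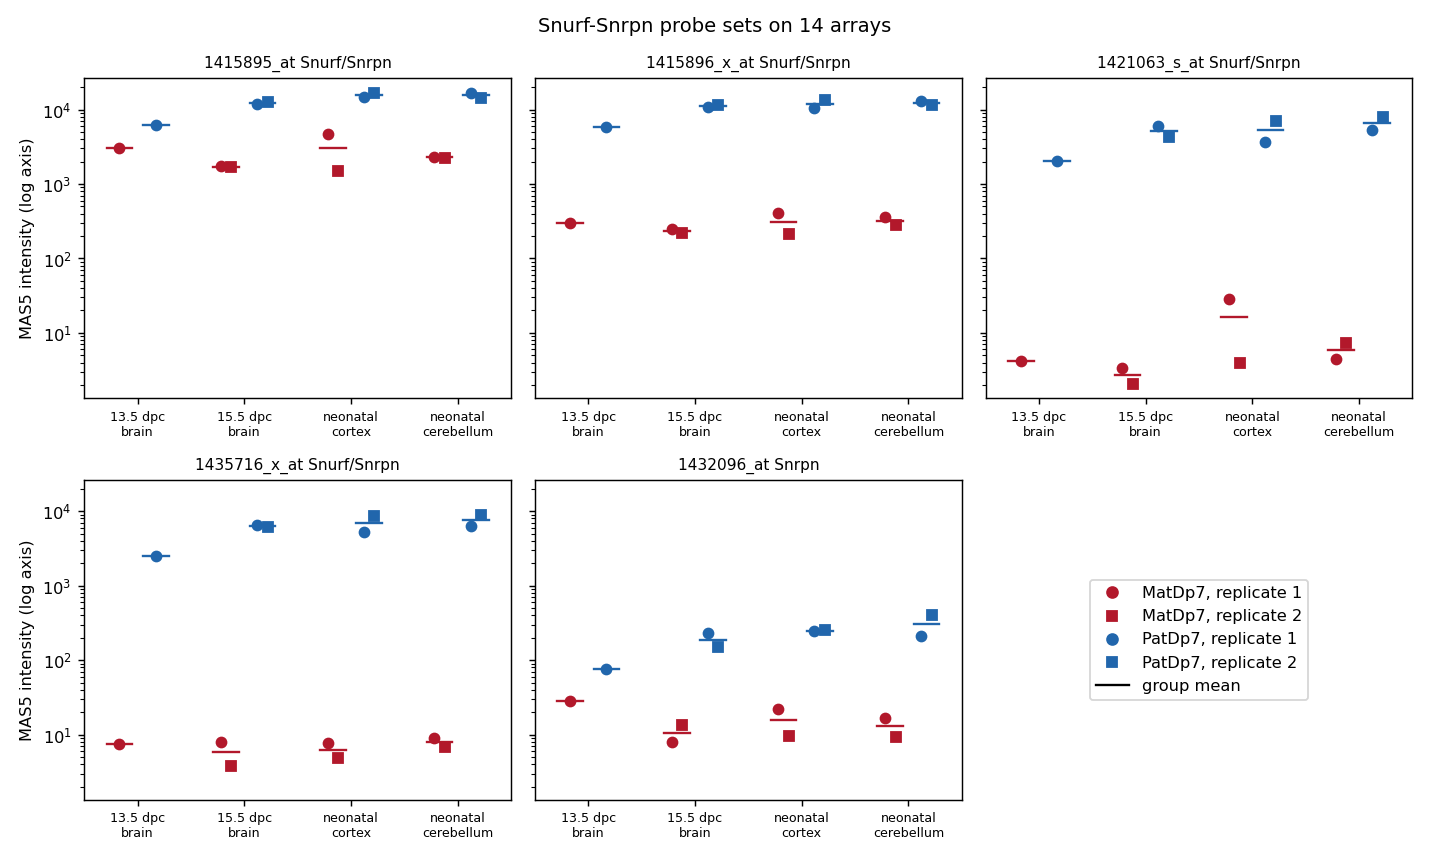
MAS5 intensity on a log axis for the 5 Snurf-Snrpn probe sets on each of the 14 arrays, by tissue and stage; red is MatDp7, blue PatDp7, circles and squares are replicates 1 and 2 and bars are group means. Every blue point lies above every red point of its panel; the red points lie between 1489 and 4635 for 1415895_at and at 9 or below for 1435716_x_at.

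The contrast was present in each tissue, though the test in single tissues called fewer probe sets. In neonatal cortex the differences of the 4 probe sets annotated to both genes ran from 2.54 to 6.86, and 3 of 4 were called higher (0.0737% of tested probe sets). In cerebellum they ran from 2.74 to 6.99, with 3 of 4 called (0.081%), and in 15.5 dpc brain from 2.79 to 6.79, with 3 of 4 called (0.0737%). The probe set that was not called was 1415895_at each time, with limma adjusted p of 0.166, 0.0777 and 0.102. In cortex its difference was 1.64 between the arrays numbered 1 and 3.44 between those numbered 2, and without the MatDp7 cortex array numbered 1 it was 3.34 and was called (limma adjusted p = 0.000807). A moderated F-test of whether the parental difference changed between the 3 tissues called 0 of 13 members tested and 0 of all 13576 probe sets (0.0%; 67 at an unadjusted p under 0.05). For 1415895_at the unadjusted p of that test was 0.904. The fit had no block for the array number, so the deviation shared by number stayed in its spread, and 0 calls do not show that the tissues were alike.

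Snrpb, which encodes the paralog SmB, had close mean levels in both duplications, with MatDp7 at 98.8% of PatDp7. Its probe set, 1419260_a_at, read 1307 and 1782 in MatDp7 cortex and 1248 and 1991 in PatDp7 cortex. In cerebellum it read 1149 and 1817 against 1100 and 1843. In 15.5 dpc brain it read 2165 and 2102 against 2068 and 2192, and at 13.5 dpc 2726 against 2965. The duplications overlapped in each replicated tissue.

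The Snrpb difference, PatDp7 minus MatDp7, was 0.01 ± 0.195 on the log2 scale (SE; limma adjusted p = 0.9999), with a 95% interval of -0.43 to 0.45. As a ratio of PatDp7 to MatDp7 this was 1.01, with an interval of 0.741 to 1.36. By tissue, cortex gave 0.05 ± 0.338, cerebellum -0.02 ± 0.338 and 15.5 dpc brain -0.003 ± 0.338. Its sign changed with the array number: it was -0.06 in all 3 tissues between arrays numbered 1, and 0.16, 0.02 and 0.06 between those numbered 2. The exact permutation test within tissues gave p = 0.944 for Snrpb. The difference between both genes, taken as 1415895_at minus Snrpb on each array, was 2.68 higher in PatDp7 (exact permutation p = 0.00926, the smallest possible).

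**Figure D2:**
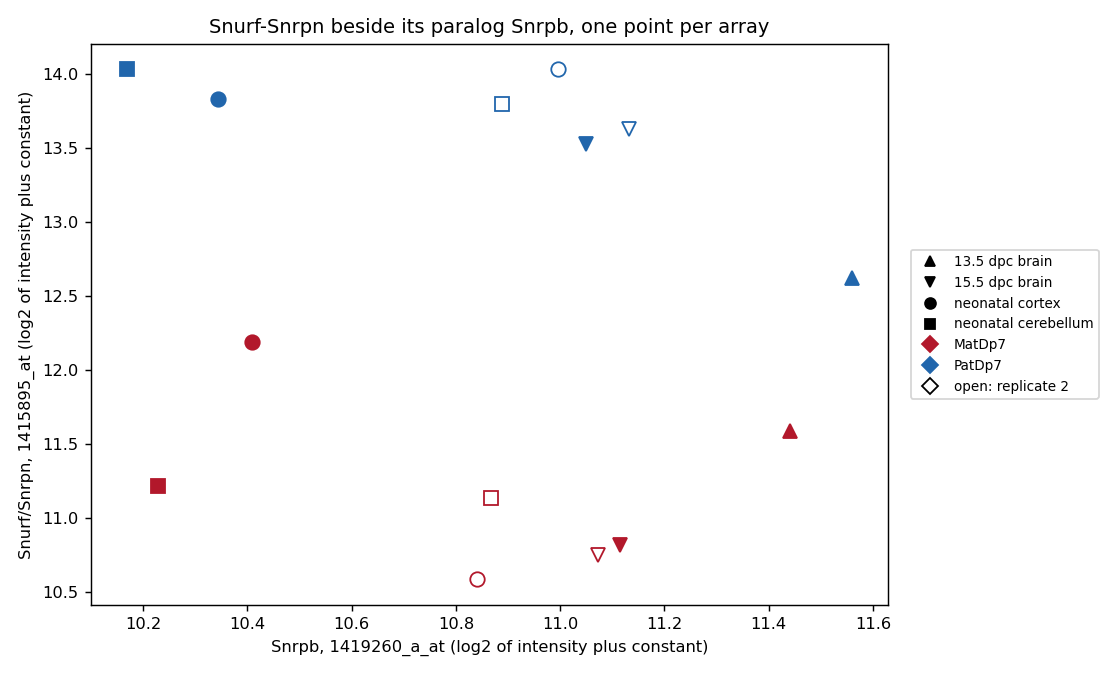
Log2 values of 1415895_at (vertical) against those of the Snrpb probe set (horizontal), with one point per array; colour gives the duplication, shape the tissue and stage, and open points are replicate 2. The colours separate along the vertical axis and overlap along the horizontal axis, on which the 13.5 dpc arrays lie farthest right and the neonatal replicate 1 arrays farthest left.

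The other partners of the Sm ring were not called in this comparison either. Of the 9 core Sm probe sets tested, Snrpb included, 0 were called in the parental comparison (0.133% of tested probe sets were). In this fit without a block for the array number, 0 of the 9 reached an unadjusted p under 0.05. Their differences ran from -0.20 to 0.11, with a median of -0.17 against 0.00 over all tested probe sets, and 6 of 9 were below 0, that is, lower in PatDp7. Taken by tissue, the median was -0.19 in cortex and 0.01 in cerebellum, and it was -0.15 for the embryos at 15.5 dpc. Both MatDp7 arrays lay above both PatDp7 arrays for 3 of the 9 in cortex (10.8% of tested probe sets did), 2 in cerebellum (10.1%) and 2 at 15.5 dpc (12.2%).

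Snrpd1 and Snrpd2, which pair in the ring, were each read by a probe set shared with a predicted gene, Gm14277 and Gm5848, so their signals cannot be assigned to the Sm gene alone. The Snrpd1 probe set read 992 to 1893 in MatDp7 (median 1138, 6 replicated arrays) and 897 to 1505 in PatDp7 (median 1087), a difference of -0.13 ± 0.145. The Snrpd2 probe set, whose Sm gene is on chromosome 7 like Snrpn, read 2194 to 4752 in MatDp7 and 2130 to 3073 in PatDp7, a difference of -0.18 ± 0.130. Both had limma adjusted p = 0.9999. Pooled over tissues their ranges overlapped, but within a tissue the Snrpd2 values did not overlap in cerebellum (2971 and 2914 against 2731 and 2681) or in 15.5 dpc brain (4752 and 3208 against 3073 and 3047). Between arrays of the same number and tissue, the Snrpd2 difference was below 0 in 6 of 6, from -0.62 to -0.04. The labels do not pair these arrays, and the share of all tested probe sets with 6 of 6 below 0 was not counted.

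Snrpd3, Snrpe and Snrpg encode further ring proteins. The differences of the 3 Snrpd3 probe sets were -0.20 ± 0.132 for 1422884_at, 0.00 ± 0.178 for 1422885_at and 0.11 ± 0.219 for 1449629_s_at. Snrpe, read by 1451294_s_at, differed by -0.17 ± 0.172, and the Snrpg probe sets 1448357_at and 1448358_s_at by -0.17 ± 0.147 and -0.20 ± 0.137 (SE; each of these 6 with limma adjusted p = 0.9999). For 1448358_s_at the difference between arrays of the same number and tissue was below 0 in 6 of 6, from -0.35 to -0.06, without passing the test. The limits given for the Snrpd2 count apply here as well. The widest 95% interval among the 9 probe sets was that of 1449629_s_at, from -0.38 to 0.61, and each of the 9 intervals included 0. At 13.5 dpc the differences of the 9 ran from -0.52 for Snrpe to 0.46 for 1422885_at.

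**Figure D3:**
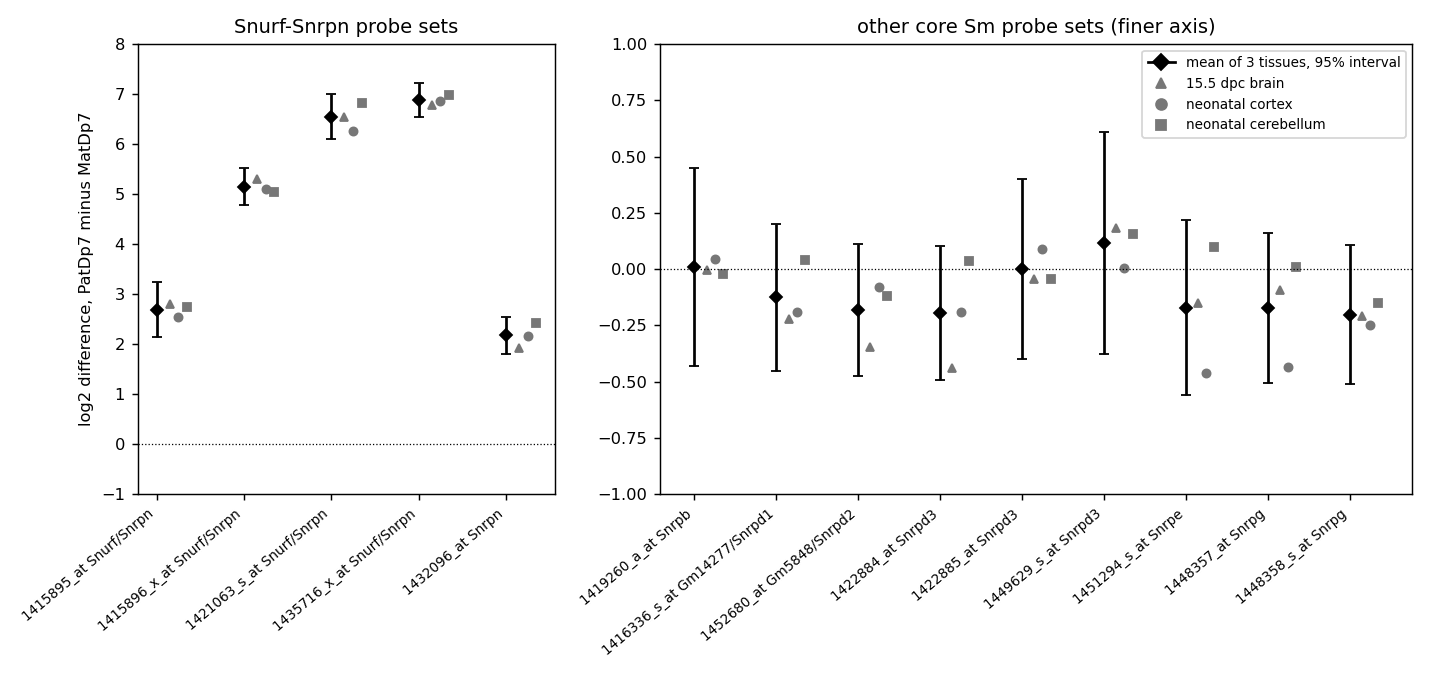
Log2 difference, PatDp7 minus MatDp7, for the 5 Snurf-Snrpn probe sets (left, axis from -1 to 8) and the 9 other core Sm probe sets (right, axis from -1 to 1); diamonds are the mean of 3 tissues with 95% intervals and grey symbols the single tissues. The left intervals lie above 1.8 and each right interval includes 0.

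Genes that act with the Sm ring were counted in the parental comparison as well. Of 11 SMN complex and assembly genes tested, 0 were called (median difference -0.04), and SMN itself (Smn1) differed by -0.01 ± 0.126 (SE; limma adjusted p = 0.9999). Of 22 proteins specific to the U1, U2 and U4/U6.U5 particles, 0 were called (median -0.06), among them Snrpa1, which lies on chromosome 7 and differed by -0.26 ± 0.141 (limma adjusted p = 0.9999). Of 7 LSm proteins, relatives of the Sm proteins, 0 were called (median -0.09). Of 11 neuron-enriched RNA-binding proteins, 0 were called (median 0.03). Of 3 tested genes of the Prader-Willi and Angelman region other than Snurf and Snrpn, 2 were higher in PatDp7: Ndn, a paternally expressed neighbour, by 6.33 ± 0.208 (limma adjusted p = 2.93e-07) and Magel2, another, by 1.46 ± 0.173 (0.0117). Ube3a, which neurons express from the maternal copy, had a difference of -2.27 ± 0.667 that was not called (limma adjusted p = 0.9999). No gene of the marker lists for neurons, progenitors, glia, vessels, meninges or blood was called in this comparison. Summed neuron markers overlapped between the duplications, at 11860 to 32021 in MatDp7 and 9621 to 33238 in PatDp7, and the 5 meningeal markers all had mean differences below 0 (median -0.43). Their summed level went opposite ways by tissue: it was lower in PatDp7 cerebellum (2970 to 5477 against 8117 to 8708) and higher in PatDp7 15.5 dpc brain (11048 to 11247 against 8889 to 8896). Summed microglial markers were higher in PatDp7 in cerebellum (2767 to 2877 against 2274 to 2430) and in 15.5 dpc brain (2909 to 2987 against 2090 to 2353). The part of these cells in the parental differences was not tested.

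Between neonatal regions and embryonic brain, 7 of the 9 core Sm probe sets had a lower mean log2 value in cortex than in 15.5 dpc brain and 8 of 9 in cerebellum, and 1448357_at for Snrpg had the largest difference of the 9 in each. The embryonic samples are labelled brain and the neonatal ones cortex or cerebellum, so stage and region cannot be told apart. In 1448357_at Snrpg read 2326 to 2787 on the 4 arrays of 15.5 dpc brain (both duplications), 804 to 1449 in cortex and 829 to 1055 in cerebellum. Neither neonatal region reached the lowest 15.5 dpc array. The log2 differences were -1.09 ± 0.181 for cortex minus 15.5 dpc brain (SE; limma adjusted p = 0.0193) and -1.43 ± 0.181 for cerebellum minus 15.5 dpc brain (0.00547). The other Snrpg probe set, 1448358_s_at, read 3249 to 4943 at 15.5 dpc, 2253 to 3232 in cortex and 2469 to 2910 in cerebellum. It fell by 0.67 ± 0.168 in cerebellum (limma adjusted p = 0.0451), and in cortex its difference of -0.60 was not called (0.067).

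Among the 9 core Sm probe sets, 2 were called lower in cortex than in 15.5 dpc brain, against 3.76% of tested probe sets, and 2 in cerebellum, against 4.62%; none was called higher. Both comparisons use the same 4 arrays of 15.5 dpc brain. The median difference of the 9 was -0.57 in cortex and -0.38 in cerebellum, and over all tested probe sets it was 0.00 and -0.03. Besides Snrpg, 1422884_at for Snrpd3 was called in cortex, where it read 853 to 1228 against 1280 to 1990 at 15.5 dpc (-0.76 ± 0.162, limma adjusted p = 0.0338). Values for members that were not called in cortex were -0.80 for Snrpe (limma adjusted p = 0.0592), -0.57 for Snrpd2 (0.0692), -0.47 for Snrpd1 (0.14) and -0.44 for Snrpb (0.255). In cerebellum they were -0.47 for Snrpe (0.201), -0.29 for Snrpd2 (0.285), -0.38 for Snrpd1 (0.217) and -0.55 for Snrpb (0.182).

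These calls depended on single arrays. When each of the 12 replicated arrays was left out in turn, the number of core Sm probe sets called in cortex lay between 0 and 2. It was 0 without either MatDp7 cortex array or any 15.5 dpc array and 1 without either PatDp7 cortex array. The calls over all probe sets fell as well, from 764 to 102 and 198 without the MatDp7 cortex arrays numbered 1 and 2, and to between 0 and 235 without one 15.5 dpc array. In cerebellum the number called was 1 without any array other than the PatDp7 cortex arrays, and 1448357_at was called without each of the 12 arrays in turn. Fits with the neonatal arrays of 1 number alone hold 1 array in each neonatal group, so their calls hold no neonatal spread and are not given.

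Snrpb was higher in every embryonic brain than in any neonatal region, without passing the test. All 6 embryonic arrays, at 2068 to 2965, were above all 8 neonatal arrays, at 1100 to 1991. The same held for both Snrpg probe sets and for Snrpd2, so for 4 of the 9 core Sm probe sets, while 7.86% of tested probe sets showed it. Within the neonatal arrays the Snrpb level went with the array number: the 4 arrays numbered 2 read 1782 to 1991 and the 4 numbered 1 read 1100 to 1307, without overlap. This separation by number was shared by 1449629_s_at for Snrpd3 and by 19.1% of all tested probe sets. Against 15.5 dpc brain, the Snrpb differences of the neonatal arrays numbered 1 alone were -0.72 in cortex and -0.89 in cerebellum. With those numbered 2 alone they were -0.17 and -0.21. Each neonatal group then held 1 array and the 15.5 dpc groups kept both numbers, so no test result is given. In order of mean level Snrpb was highest at 13.5 dpc, then in 15.5 dpc brain, cortex and cerebellum, and cortex and cerebellum did not differ beyond their spread (0.11 ± 0.239, limma adjusted p = 0.98).

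**Figure D4:**
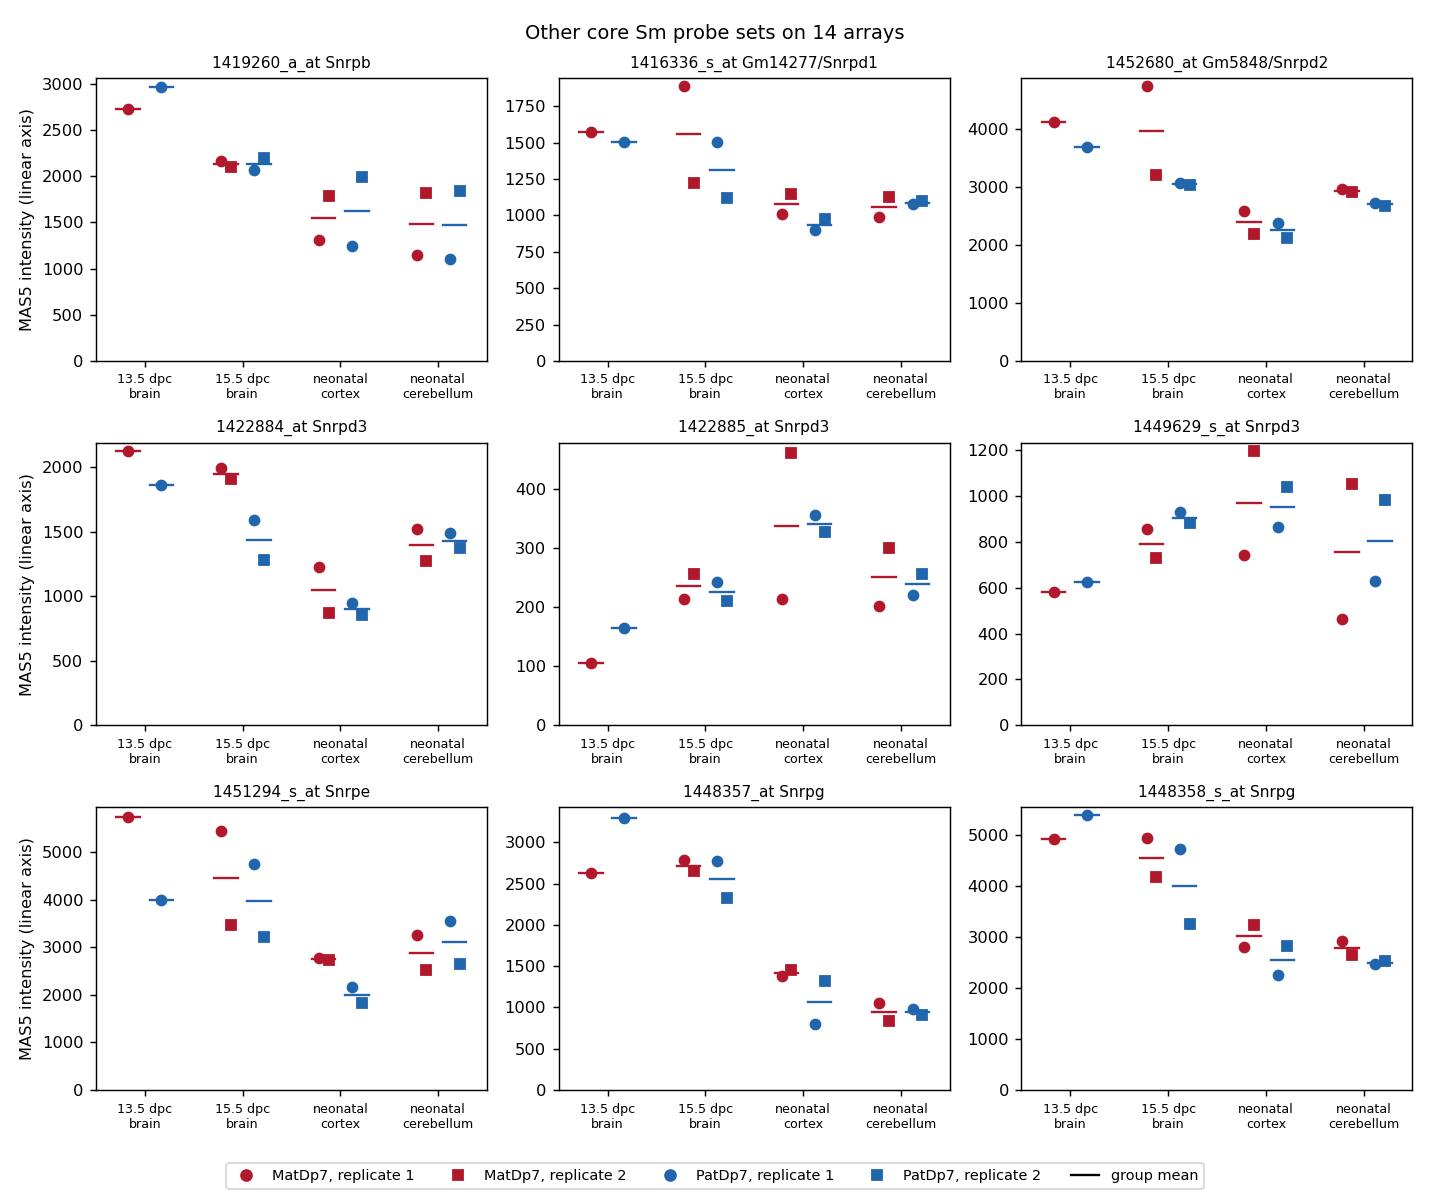
MAS5 intensity on a linear axis from 0 for the 9 core Sm probe sets other than Snurf-Snrpn, on each array by tissue and stage; colours, symbols and bars as for the Snurf-Snrpn values. Red and blue points overlap in 19 of the 27 combinations of probe set and replicated tissue, and in the Snrpb panel the neonatal squares (1782 to 1991) lie above the neonatal circles (1100 to 1307).

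The Snrpd3 probe sets disagreed on this comparison. While 1422884_at was lower in cortex, 1422885_at read 214 to 460 in cortex and 211 to 255 at 15.5 dpc, a difference of 0.43 that was not called (limma adjusted p = 0.228). The third, 1449629_s_at, read 742 to 1194 in cortex and 729 to 929 at 15.5 dpc, a difference of 0.15 (0.726). Over the 14 arrays, which share tissue and stage, the log2 values of 1422884_at correlated at r = -0.81 with 1422885_at and at -0.61 with 1449629_s_at, and the latter pair at 0.74. No direction is therefore given for Snrpd3 as a gene. Between the neonatal regions 0 of the 13 members tested were called (0.368% of tested probe sets were). Both 1422884_at and the Snrpd2 probe set had all 4 cerebellum arrays above all 4 cortex arrays, as did 2.81% of tested probe sets. For 1422884_at the values were 1273 to 1525 against 853 to 1228, with a difference of -0.53 ± 0.162 (limma adjusted p = 0.41).

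Between 15.5 and 13.5 dpc 0 of the 13 members tested were called, against 5.04% of tested probe sets. The Snrpb difference, 15.5 minus 13.5 dpc, was -0.41 ± 0.292 (limma adjusted p = 0.545), and both 13.5 dpc arrays were above all 4 arrays of 15.5 dpc brain, as in 21.4% of tested probe sets. The opposite order, all 15.5 dpc arrays higher, held for 1422885_at and 1449629_s_at of Snrpd3 and for 22.7% of tested probe sets. The 13.5 dpc groups hold 1 array each and were taken to vary like the others.

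**Figure D5:**
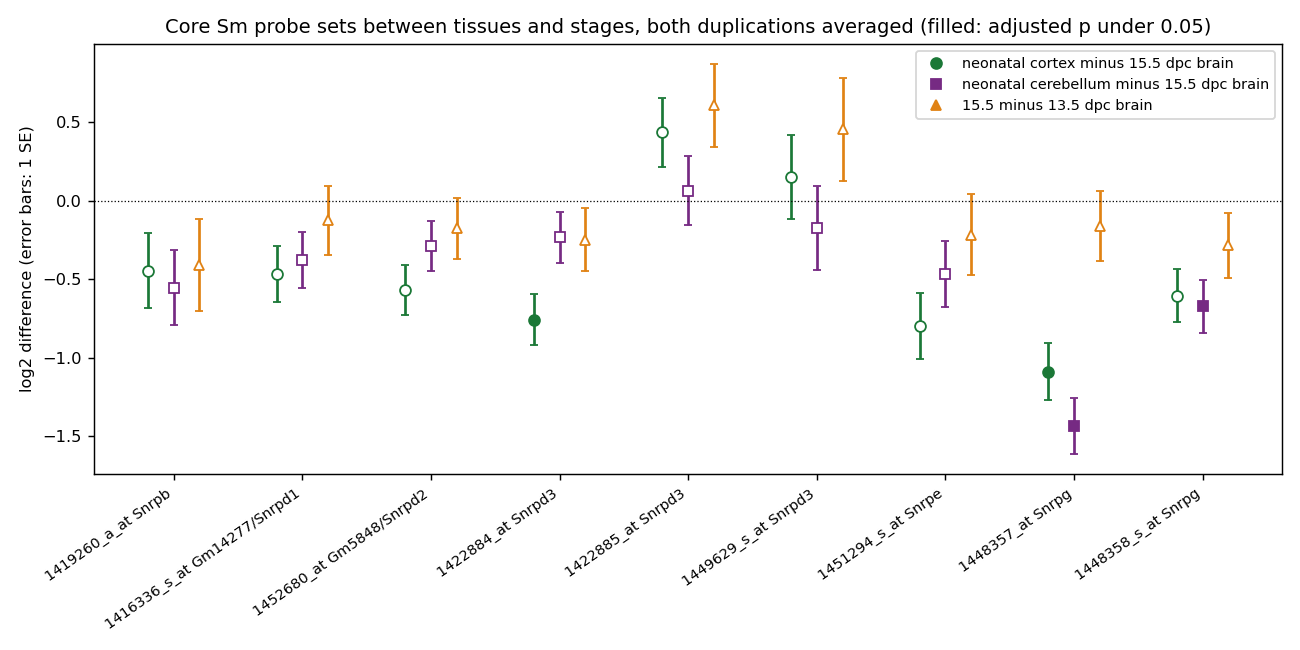
Log2 differences between tissues and stages for the 9 core Sm probe sets, averaged over both duplications, with bars of 1 SE; filled symbols have limma adjusted p under 0.05. The filled symbols are Snrpg in cortex (-1.09) and cerebellum (-1.43 and -0.67) and 1422884_at for Snrpd3 in cortex (-0.76).

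For Snurf-Snrpn itself, stage was also compared in PatDp7 alone, a choice made after its lower level in MatDp7 was seen. In PatDp7, 15.5 dpc brain was above 13.5 dpc brain by 0.96, 0.94, 1.28 and 1.29 for 1415895_at, 1415896_x_at, 1421063_s_at and 1435716_x_at, and none of these passed the test (limma adjusted p = 0.576, 0.323, 0.259 and 0.136; 0.339% of tested probe sets were called). The single 13.5 dpc PatDp7 array was the lowest of the 7 PatDp7 arrays in each of these probe sets. Neonatal cortex and 15.5 dpc brain differed by 0.00 to 0.35, and cerebellum and 15.5 dpc brain by 0.10 to 0.36, with 0 of 4 called in either (0.0295% and 0.376% of tested probe sets were), and cortex and cerebellum by -0.36 to 0.01, again with 0 of 4 called (0.125%). Summed intensities of 8 neuron markers in PatDp7 were 9621 at 13.5 dpc, 21823 to 23050 at 15.5 dpc, 25482 to 33238 in cortex and 27802 to 31058 in cerebellum. Over both duplications, 5 of 8 were called higher at 15.5 than at 13.5 dpc (5.04% of tested probe sets were called either way). Single members did not all follow the sum, and 2 of the 8 were below 0 in cortex minus 15.5 dpc brain. Over both duplications Nefl read 1933 to 3479 in cortex and 2200 to 3643 at 15.5 dpc, and Nefm 484 to 831 and 536 to 1276. The part of neurons in the Snurf-Snrpn values was not tested.

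Summed marker genes of other cells also differed between these tissues and stages. Summed intensities of 9 progenitor and proliferation markers were 21862 to 23484 at 13.5 dpc, 15613 to 22009 at 15.5 dpc, 8468 to 12697 in cortex and 10506 to 11430 in cerebellum. Of the 9, 4 were called lower in cortex than at 15.5 dpc and 5 in cerebellum, against 3.76% and 4.62% of tested probe sets. Single members did not all follow the sum, and in 15.5 minus 13.5 dpc brain 5 of the 9 were below 0. Sox2 read 573 to 586 at 13.5 dpc and 1191 to 1451 at 15.5 dpc, and Hes5 read 145 to 245 and 269 to 474. Meningeal markers summed to 34598 to 35080 at 13.5 dpc, 8889 to 11247 at 15.5 dpc and 2970 to 9504 in the neonatal regions, and red blood cell markers to 28331 to 34136, 2430 to 7764 and 333 to 1199. The blood sum at 13.5 dpc was mostly Hbb-y (11701 to 12207, and 1.4 to 4.0 in cortex) and Hba-x (12673 to 17328, and 37.1 to 91.0 in cortex). Alas2 was lower in cortex as well (229 to 546 against 3905.5 to 4493 at 13.5 dpc). Hba-a1 overlapped, at 51.1 to 109 at 13.5 dpc, 44.9 to 136 at 15.5 dpc and 35.3 to 254 in cortex. The blood sum is therefore no measure of the number of blood cells. The part of progenitor, meningeal and blood cells in the Sm gene differences was not tested.

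Other spliceosomal genes were counted in the same comparisons, by the brightest probe set of each gene. In cortex against 15.5 dpc brain (3.76% of tested probe sets lower), 2 of 22 particle-specific genes were lower, Usp39, a tri-snRNP protein (-0.60 ± 0.123, limma adjusted p = 0.0307), and Snrpa1, a U2 protein (-0.74 ± 0.173, 0.0442), with a list median of -0.22. Of 7 LSm genes 1 was lower, Lsm3 (-0.61 ± 0.149, 0.0477), with a median of -0.55. Of 11 SMN complex genes 0 were called (median -0.13); the smallest p was that of Gemin7 (-0.52, limma adjusted p = 0.063). In cerebellum the only call among these lists was Snrpa1 (-0.72 ± 0.173, 0.0404), and the medians were -0.25 for the particle-specific genes, -0.41 for LSm and -0.14 for the SMN complex. Of 11 neuron-enriched RNA-binding proteins 0 were called in either region, with medians of 0.86 in cortex and 1.06 in cerebellum. Several of these counts changed when all probe sets of a gene were averaged: the particle-specific calls became 0 in both regions, the SMN complex had 2 of 10 lower in cortex, and the neuron-enriched RNA-binding proteins had 2 of 11 higher in cerebellum.

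The genes whose log2 values followed 1415895_at most closely over the 14 arrays were Magel2 (Pearson r = 0.961), Ndn (0.923), Peg3 (0.909), Gm5802 (0.824) and Elovl6 (0.763). Those nearest Snrpb were Igf2 (0.970), Stk38 (0.969), Shmt2 (0.966), Lsm4 (0.963) and Aldh18a1 (0.961). The lists share no gene, and the arrays share tissue, stage and duplication. Between 1415895_at and Snrpb r was -0.16. Among the core Sm probe sets Snrpb was closest to Snrpg, at 0.77 and 0.78, and to the Snrpd1 probe set, at 0.71.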

How the data were processed

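RNA from neonatal cortex and cerebellum and from embryonic brain was hybridised to Affymetrix 430A arrays. Per the labels, total RNA was labelled with biotin, and per the submitters' processing notes the deposited values come from MAS5, whose version is not given in the sources used here. The deposited intensities are on a linear scale with equal trimmed means; no further scaling was applied. The 64 control probe sets were left out, genes were named from the platform annotation, and positions are those of RefSeq (GRCm38.p6).

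Intensities plus 51.8 (the 20th percentile of all values) were log2 transformed. A probe set was tested where its average reached the 40th percentile of these averages (13576 of 22626; 13 of 14 members) with limma 3.58.1 in R 4.3.3, in one fit of all 14 arrays and 8 groups, with an intensity trend, 6 residual degrees of freedom and Benjamini-Hochberg adjustment at 0.05. The code was tested on simulated data. Exact permutation tests exchanged labels within tissues. Where a gene had several probe sets, the brightest stood for it in lists. All members are described, with every array's value for Snurf-Snrpn and Snrpb; likeness names the 5 genes with the highest r, and lists up to 4 genes with the smallest p. Members and lists were chosen with earlier results of these data known. The number of arrays limits the precision. Alternatives changed the constant, filter, scaling, intensity trend, replicate block, arrays used and, for lists, the probe set of a gene; comparisons within one duplication were added after seeing the data.

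Arrays with the same replicate number deviated together among the neonatal groups (r from 0.71 to 0.815 in 6 pairs of groups) but not elsewhere (-0.0922 to 0.264 in 9). The labels do not say that a number marks a shared animal or batch, so the number was not used as a block in the main fit. The deviation shared by number therefore stayed in the spread against which differences were tested. Results with a block are given below.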

Additional observations from a re-analysis of the deposited data

How the results depend on the processing

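The Snurf-Snrpn result kept its direction for the 4 probe sets annotated to both genes under each alternative tried. These changed the constant (16 and 200), the filter (none), the scaling (quantile and median) and the intensity trend (none). Others added a replicate block, used neonatal arrays of 1 number, or left out each of the 12 replicated arrays. Apart from the fits with neonatal arrays of 1 number, whose calls are not given, the 4 also kept their call. The members called then numbered 4 or 5. The 1415895_at difference ran from 2.42 to 2.96 with arrays left out. With arrays left out, the members called numbered 3 to 4 in each single tissue, 0 in cortex minus cerebellum and in 15.5 minus 13.5 dpc brain, 0 to 2 in cortex minus 15.5 dpc brain (2 in full; without the MatDp7 cortex array numbered 2 the single call was 1415895_at, 0.88 higher in cortex) and 1 to 2 in cerebellum minus 15.5 dpc brain (2 in full).

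The replicate block raised the count in stage comparisons. With the replicate block within tissue, 7 members were called in cortex minus 15.5 dpc brain, 5 in cerebellum minus 15.5 dpc brain, 2 in 15.5 minus 13.5 dpc brain and 1 in cortex minus cerebellum, and with the replicate block for the neonatal arrays 7, 4, 1 and 1. Neither block called a core Sm probe set in the parental comparison. Under the block within tissue, the 95% interval of 1448358_s_at for Snrpg was -0.402 to -0.0039 (limma unadjusted p = 0.046, adjusted p = 0.559). Under the block for the neonatal arrays it was -0.456 to 0.050. No other core Sm interval excluded 0 under either block. The next smallest limma unadjusted p under the block within tissue were 0.063 for 1422884_at of Snrpd3, 0.075 for Snrpe and 0.092 for Snrpd2. Their limma adjusted p were 0.579, 0.596 and 0.614, and each was lower in PatDp7. The Snrpb parental difference stayed at 0.01, with 95% intervals of -0.19 to 0.20 under both blocks, and the blocks left its stage differences at -0.44 and -0.55, now called. Over all tested probe sets it raised the calls from 764 to 5747 in cortex and from 1001 to 5382 in cerebellum minus 15.5 dpc brain, from 684 to 3253 in 15.5 minus 13.5 dpc brain, from 50 to 654 in cortex minus cerebellum and from 18 to 27 in the parental comparison. In PatDp7 alone, 1435716_x_at was called higher at 15.5 than at 13.5 dpc under both blocks (limma adjusted p = 0.0135 and 0.00988).

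With median scaling 4 and 1 members were called in cortex and cerebellum minus 15.5 dpc brain, and without a filter 1 in cerebellum. The share of all tested probe sets called in these comparisons under the same settings is not given here. With neonatal arrays numbered 1 alone the counts were 6 (with 1415895_at of Snurf-Snrpn, higher in cortex) and 4, and 2 in 15.5 minus 13.5 dpc brain; with those numbered 2 alone cerebellum had 1 and 15.5 minus 13.5 dpc brain 2. Over all tested probe sets, 15.5 minus 13.5 dpc brain had 1084 calls with no filter and 432 with median scaling. With all probe sets of a gene averaged, 3 neuron-enriched RNA-binding proteins were called in 15.5 minus 13.5 dpc brain. The cause was not tested.

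Small differences changed sign. The Snrpb parental difference was -0.026 with median scaling and -0.042 with neonatal arrays numbered 1 alone, and -0.11 to 0.13 with arrays left out. That of 1422885_at was -0.0041 with a constant of 200, -0.00015 with quantile normalization, -0.031 with median scaling, -0.22 with arrays numbered 2 alone and -0.16 to 0.16 with arrays left out. That of 1449629_s_at was -0.032 with arrays numbered 2 alone and -0.068 to 0.30 with arrays left out. Against 15.5 dpc brain, 1449629_s_at was -0.075 in cortex with arrays numbered 1 alone and 0.25 in cerebellum with those numbered 2 alone, and -0.011 to 0.31 in cortex and -0.45 to 0.10 in cerebellum with arrays left out; 1422885_at was -0.097 in cerebellum with arrays numbered 1 alone and -0.053 to 0.18 with arrays left out.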
